A study of Mus musculus with 5 samples.

Results

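Complement is a cascade of plasma and cell surface proteins, and the 7 genes described here encode 5 of its components (C3, C1ra, C4b, Cfb and Cfd) and 2 of its inhibitors (Serping1 and Cd55). They were taken by gene symbol from the table of 23337 genes, in which all 7 had a row. The messenger RNA came from mouse embryonic fibroblasts of strain 129Sv, made immortal by the SV40 T antigen, which disables the tumour suppressors p53 and RB. In 2 libraries the cells were labelled SIRT3 -/- (KO) and in 3 wild type (WT). Both groups carried the T antigen and grew under normal conditions, and SIRT3 is a deacetylase of mitochondria. No label says how many lines or cultures the libraries of a genotype came from, so p-values rest on the spread among these libraries only, and that spread could be technical.

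The cascade can start on antibodies through the C1 complex (the classical pathway), on sugars through lectins, or by itself through factors B and D (the alternative pathway). All routes cleave C3, the central component, and the fragment C3b then marks surfaces for uptake and builds the enzyme that cleaves C5. The liver makes most plasma complement, and fibroblasts are among the cells that make C3, factor B and the C1 proteases locally. Host cells limit the cascade with soluble inhibitors such as C1 inhibitor and with membrane proteins such as CD55.

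Levels are given as normalized read counts, which are reads per gene divided by a size factor for each library, and between genes as RPKM, which scales reads to gene length and library depth. The libraries labelled KO held 33473103 and 33579031 reads, and the WT libraries between 37396488 and 41758681. Sirt3, the targeted gene, was at 200.4 and 216.8 normalized counts in the libraries labelled KO, against 169.7, 149.4 and 118.4 in the WT libraries. It was thus detected in every library and higher in those labelled KO (log2 fold change 0.53, limma adjusted p = 0.00445), a call lost without KO replicate 2 (adjusted p = 0.0769) and with the median of genes within 5 Mb removed (0.22, adjusted p = 0.232). Totals per gene cannot tell whether a targeted exon was absent, and directions are given between libraries as labelled. Of 10 fibroblast markers 9 were tested, of which 2 rose and 5 fell, and the summed level of the 10 was 548082 and 592200 in the libraries labelled KO and from 585750 to 602425 in WT. Col1a1, Col1a2, Vim and Fn1 carried most of that sum, and Lum was at or near 0. Other markers differed widely: Pdgfra, for a growth factor receptor, was at 6.27% of its WT mean in the libraries labelled KO (log2 fold change -4.00), Dcn, for decorin, at 19.5% (-2.35) and Col3a1, for a collagen chain, at 21.0% (-2.25), all called by limma. The part of these marker differences in the complement results was not tested.

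C3, C1ra and Cfb fell in the libraries labelled KO, and Cd55 fell to 0 and 2 reads. C3 fell to 7.93% of its WT mean, C1ra to 48.5% and Cfb to 68.1%. Serping1 passed the threshold as lower, but its groups overlapped and several other settings ended the call. C4b and Cfd were at a few reads in every group and were not tested. In bulk RNA, fewer cells making a transcript and less of it per cell cannot be told apart. Of all 13062 genes tested (those reaching 10 in 2 libraries or more), 32.6% were called lower and 65.3% called in either direction at an adjusted p under 0.05. Of the 5 members tested, Cd55 and Serping1 passed the filter on low values only through the WT libraries, so a difference downwards was built in for them and the count of 5 lower of 5 is a description. Without them, all 3 remaining tested members fell. At 2-fold or more, 2 of these 3 (C3 and C1ra) were called lower, where 6.41% of all genes were. C1ra was close to this bound (log2 fold change -1.03, SE 0.178). Several other settings put C1ra under 2-fold, among them limma without WT replicate 2 (-0.97) and the authors' deposited table (-0.93). EdgeR on recovered reads, which leave out WT replicate 2, did so too (-0.98). In all 3 both libraries labelled KO lay below every WT library, as in 37.6% of all genes. These 3 were chosen with earlier results of these data known, so their counts too are a description. The shares of all genes include genes that passed the filter through 1 group only. On recovered reads edgeR called 4 of the 5, all but Serping1, beside 62.0% of all genes in either direction. The authors' deposited table called the same 4, beside 50.5% of its genes. The median log2 fold change of C3, C1ra and Cfb was -1.03, and that of all genes tested was -0.0023.

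**Figure D1:**
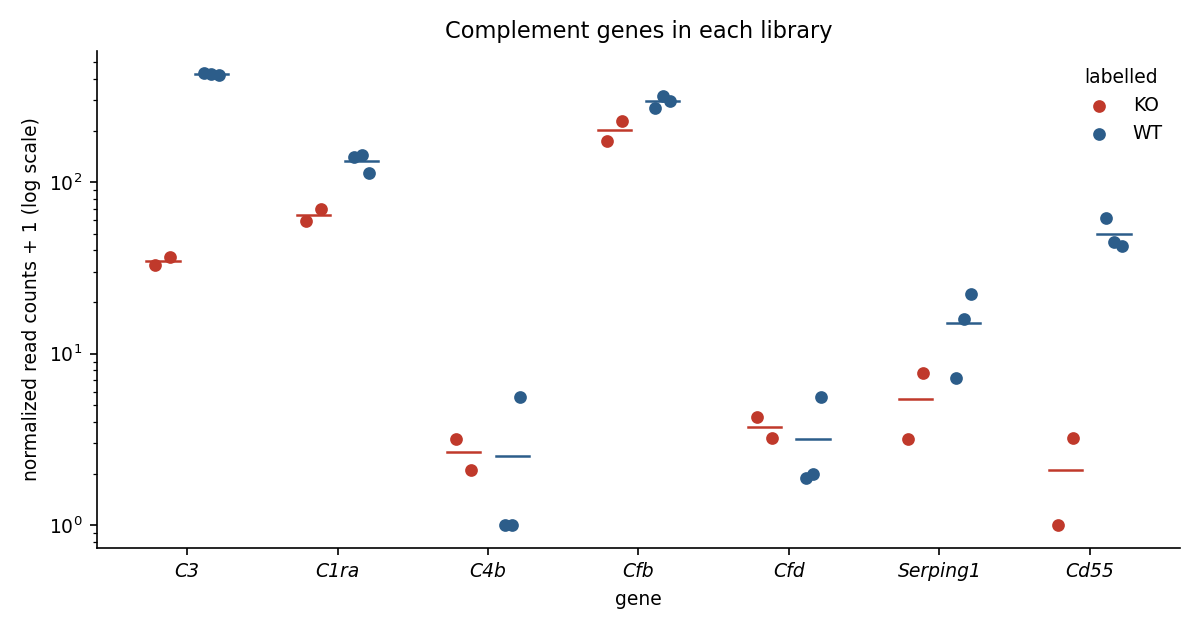
Normalized read counts plus 1 (log scale) of the 7 complement genes in each library, with 2 libraries labelled KO (red, left of each pair) and 3 WT libraries (blue, right); points are libraries and lines are group means. C3, C1ra, Cfb and Cd55 show no overlap between groups, while C4b, Cfd and Serping1 overlap.

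The promoters of the members that fell are shown because several of them moved in the same direction, and because the windows differ in composition. RefSeq windows of 300 bases (250 before to 50 after the annotated start) were listed for 4 of the 7 members, C3, C1ra, Cd55 and Cfd, in assembly GRCm38.p6 (mm10). C3 (chr17:57228087-57228386, minus strand), C1ra (chr6:124512371-124512670, plus strand) and Cd55 (chr1:130462695-130462994, minus strand) are printed 5′ to 3′, with capitals where a searched motif matched on either strand.
C3: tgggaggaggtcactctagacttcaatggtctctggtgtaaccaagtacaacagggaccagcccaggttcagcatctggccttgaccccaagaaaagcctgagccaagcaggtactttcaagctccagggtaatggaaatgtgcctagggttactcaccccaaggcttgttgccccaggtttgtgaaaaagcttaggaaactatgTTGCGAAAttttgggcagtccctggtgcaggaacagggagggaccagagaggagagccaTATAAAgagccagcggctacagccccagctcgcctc
C1ra: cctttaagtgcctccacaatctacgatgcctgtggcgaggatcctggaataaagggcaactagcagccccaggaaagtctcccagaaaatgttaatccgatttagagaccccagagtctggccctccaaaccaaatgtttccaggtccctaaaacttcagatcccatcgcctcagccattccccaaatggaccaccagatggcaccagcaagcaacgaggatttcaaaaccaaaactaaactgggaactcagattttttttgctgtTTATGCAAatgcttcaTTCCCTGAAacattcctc
Cd55: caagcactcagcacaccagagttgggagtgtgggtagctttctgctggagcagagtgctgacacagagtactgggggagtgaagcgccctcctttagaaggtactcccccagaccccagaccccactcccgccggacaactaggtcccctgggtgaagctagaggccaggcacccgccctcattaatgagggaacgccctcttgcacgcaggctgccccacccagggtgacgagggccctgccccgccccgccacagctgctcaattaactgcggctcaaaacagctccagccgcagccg
The motifs were an NF-kB motif (GGGA and TTCC with any 2 bases between), a STAT motif (TTCNNNGAA), an interferon response motif (GAAA repeated with any 2 bases between), a C/EBP motif (TTGCNNAA) and a TATA box (TATAAA). The C3 window held the C/EBP motif as TTGCGAAA, which starts 45 bases before the annotated start, and 1 TATA box that starts 14 bases after it. The C1ra window held the STAT motif as TTCCCTGAA and, on the other strand, the C/EBP motif, printed as TTATGCAA, and these did not overlap. The Cd55 window held none of the 5 motifs, and neither did that of Cfd. The RefSeq span of Cd55 runs to 130465009, so its window on the minus strand surrounds a start inside the gene. Bases before the outer end of Cd55 were not searched. Of all 32851 promoter windows, 10.8% held the C/EBP motif, 13.6% the TATA box, 8.30% the STAT motif, 3.44% the interferon response motif and 1.47% the NF-kB motif. The windows were 53.3% GC for C3, 47% for C1ra and 63.3% for Cd55.

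C3, the component on which all routes converge, lies on chromosome 17 from 57203967 to 57228136 (GRCm38.p6). It was at 31.9 and 35.6 normalized counts in the libraries labelled KO, against 430.4, 426 and 420.0 in the WT libraries. The libraries of each group lay close together and the groups were far apart. Libraries labelled KO averaged 33.8 ± 2.58 (SD, n = 2) and WT libraries 425.6 ± 5.26 (SD, n = 3), and the log2 difference was -3.62 (SE 0.137, adjusted p = 1.26e-15 by limma). In all, 75 of the 13062 genes tested (0.574%) had a lower log2 fold change. The spread of C3 among WT libraries, 1.24% of the mean, was below the 4.68% that counting error alone gives at this depth. In the authors' deposited table the log2 fold change of C3 was -3.34 (adjusted p = 2.3e-64). The annotated microRNA gene Mir6978 lies within C3 on the same strand.

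The classical pathway starts with C1q, which activates the proteases C1r and then C1s. C1ra, which encodes C1r, lies on chromosome 6 from 124512621 to 124523440. It was at 58.4 and 68.9 normalized counts in the libraries labelled KO, against 138.8, 142.4 and 112.9 in WT. Both libraries labelled KO were below all WT libraries. Libraries labelled KO averaged 63.7 ± 7.48 (SD, n = 2) and WT libraries 131.4 ± 16.1 (SD, n = 3), and the log2 difference was -1.03 (SE 0.178, adjusted p = 3.15e-05 by limma). Of the 50-base windows of the longest C1ra transcript, 48.0% also occur in that of the neighbouring copy C1rb, so reads of the pair could have been split in counting. C1rb itself was at 3.30 normalized read counts in KO replicate 1 and listed at 0 in the other libraries.

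C1s, the partner protease and a neighbour of C1ra on chromosome 6, was at 15.4 and 17.8 normalized counts in the libraries labelled KO, against 84.9, 65.3 and 87.0 in WT. Its log2 fold change was -2.18 (SE 0.253, limma adjusted p = 1.47e-07). The ratio of C1ra to C1s in RPKM was 4.09 and 4.19 in the libraries labelled KO and 1.77, 2.36 and 1.40 in WT. These ratios do not overlap, but with 2 libraries against 3 the exact two-sided permutation p was 0.2, the smallest this design allows. An annotated antisense gene, Gm16567, overlaps C1s. C1rl, for a C1r-like protease, lies on the other side of C1ra and did not pass (log2 fold change -0.23, adjusted p = 0.562). C1qa, C1qb and C1qc, for the recognition subunit, were listed at 0 in all 5 libraries.

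C4b, the classical pathway component that C1s cleaves, was at 2.20 and 1.11 normalized counts in the libraries labelled KO, against 0, 0 and 4.63 in WT. These are 3 reads in the libraries labelled KO and 5 in WT replicates 1 and 3 together, a ratio of 0.734 with an exact 95% counting interval from 0.114 to 3.78. With WT replicate 2 included, the ratio of the group means was 1.07. No difference was detectable at this depth. Its near copy C4a, known in mice as sex-limited protein, was at 31.9 and 46.7 in the libraries labelled KO and 33.6, 41.5 and 39.8 in WT (log2 fold change 0.018, adjusted p = 0.959). Of the 50-base windows of the C4b transcript, 35.2% occur in C4a, so the division of reads between them is uncertain.

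Cfb encodes factor B, the protease of the alternative pathway enzyme that cleaves C3. It lies in the major histocompatibility complex on chromosome 17, from 34856374 to 34862514. It was at 174 and 228 normalized counts in the libraries labelled KO, against 271, 316 and 298 in WT. The groups did not overlap, though the 2 libraries labelled KO stood apart from each other more than the WT libraries did. Libraries labelled KO averaged 201 ± 38.2 (SD, n = 2) and WT libraries 295 ± 22.3 (SD, n = 3), and the log2 difference was -0.56 (SE 0.126, adjusted p = 0.000545 by limma). The spread between the libraries labelled KO was 19.0% of the mean, beside 7.42% from counting error. Without KO replicate 1 the log2 fold change was -0.37 (adjusted p = 0.0362). The annotated read-through gene Gm20547 overlaps Cfb, and the gene Rdbp lies 2 bases from it, so that without a stated strand setting some reads may be shared.

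Cfd encodes factor D, also called adipsin, which cleaves factor B and is abundant in fat cells. It was at 3.30 and 2.22 normalized counts in the libraries labelled KO, against 0.884, 0.989 and 4.63 in WT. That is 5 reads in the libraries labelled KO and 6 in WT replicates 1 and 3 together, a ratio of 1.02 with a counting interval from 0.246 to 4.01. With WT replicate 2 included, the ratio of the group means was 1.28. Of 8 adipocyte markers, Adipoq, Lep and Cidec were listed at 0 in all libraries. The summed level of these markers was 231.3 and 239.1 in the libraries labelled KO and between 149.4 and 165.2 in WT, carried by Pparg and Lpl, which both rose (log2 fold changes 0.52 and 0.66).

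Serping1 encodes C1 inhibitor, which inactivates C1r and C1s. It was at 2.20 and 6.67 normalized counts in the libraries labelled KO, against 6.19, 14.8 and 21.3 in WT. KO replicate 2 lay above WT replicate 1, so the groups overlapped. Libraries labelled KO averaged 4.44 ± 3.16 (SD, n = 2) and WT libraries 14.1 ± 7.57 (SD, n = 3), and the log2 difference was -1.46 (SE 0.578, adjusted p = 0.0317 by limma). The spread within groups, 71.2% of the mean for libraries labelled KO and 53.7% for WT, was above the counting error of 50% and 25.8%. The call was lost without KO replicate 1 (log2 fold change -0.83). It was also lost by limma without WT replicate 2 (-1.35, adjusted p = 0.107) or WT replicate 3 (-1.11, adjusted p = 0.158). On the recovered reads, which leave out WT replicate 2, edgeR did not make the call (adjusted p = 0.0700). Nor did the authors' deposited table (log2 fold change -0.67, adjusted p = 0.109).

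Cd55 encodes decay-accelerating factor, a membrane protein that takes apart the enzymes that cleave C3 and C5. It was at 0 and 2.22 normalized counts in the libraries labelled KO, against 61.0, 43.5 and 41.6 in WT. KO replicate 1 had no read, which allows up to 3 reads or 3.30 normalized read counts, and KO replicate 2 had 2 reads. Over the 2 libraries labelled KO and WT replicates 1 and 3, the ratio was 0.0215 with an exact 95% counting interval from 0.00257 to 0.0794. The limma log2 difference was -4.77 (SE 0.491, adjusted p = 2.37e-08). With so few reads its size depends on the pseudocount, from -5.38 at 0.5 to -3.14 at 5, and it was -2.48 in the authors' deposited table. Cd55 lies on chromosome 1 from 130429798 to 130465009. The annotated antisense gene Gm16083 overlaps it, and 13.3% of the 50-base windows of its transcript occur in the copy Cd55b, which the table lists as Daf2, at 0 in all libraries.

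On the RPKM scale Cfb stood highest of the 7 in both groups, and the position of C3 differed. In the libraries labelled KO the order was Cfb (mean 1.97 RPKM), C1ra (0.621), C3 (0.177), Cfd (0.0808), Serping1 (0.0655), Cd55 (0.0118) and C4b (0.00830). In WT it was Cfb (2.91), C3 (2.24), C1ra (1.29), Cd55 (0.522), Serping1 (0.210), Cfd (0.0636) and C4b (0.00774). In the libraries labelled KO neighbours in the order did not overlap, except Cfd with Serping1 and Cd55 with C4b. In WT only Serping1 with Cfd did. The lower places rest on few reads, so their order is a description. Serping1 had 2 and 6 reads and Cd55 0 and 2 in the libraries labelled KO. In WT, Cfd had 1, 1 and 5 reads and C4b 0, 0 and 5. The summed level of the 7 genes was 2.60 and 3.27 RPKM in the libraries labelled KO, against 7.08, 7.46 and 7.18 RPKM in WT. C3 made up 6.49% and 5.68% of that sum in the libraries labelled KO and 32.1%, 30.1% and 30.9% in WT. The ratio of C3 to Cfb was 0.0982 and 0.0835 in the libraries labelled KO, against 0.849, 0.723 and 0.755 in WT. This ratio did not overlap between groups, with an exact two-sided permutation p of 0.2, the smallest possible, and it was 1 of 2 ratios compared (adjusted p = 0.2 for both).

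**Figure D2:**
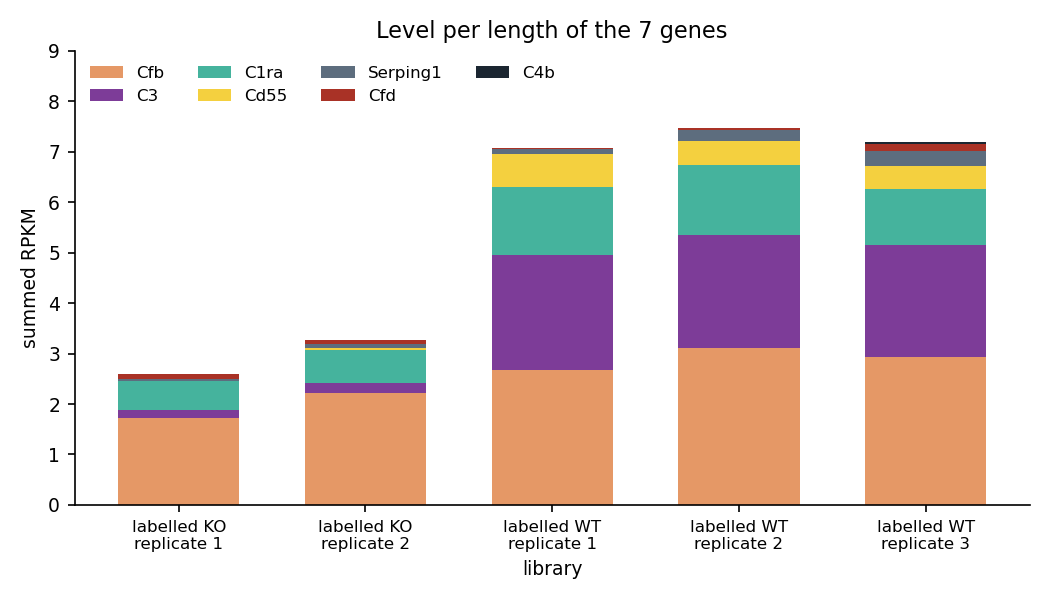
Summed RPKM of the 7 complement genes, stacked by gene, in each library, with the 2 libraries labelled KO on the left and the 3 labelled WT on the right. The C3 part is thin in both libraries labelled KO (0.169 and 0.186 RPKM) and over 2 RPKM in each WT library, while Cfb is the tallest part in all 5.

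Of 48 other complement genes 15 were tested, and 7 of these fell, 3 rose and 5 did not pass. The share called, 66.7%, was near the 65.3% of all genes tested. Without Cd59a and Cpn1, which passed the filter through 1 group only, 6 of 13 fell and 2 rose. Of these 2, Cr2 reached 10 in only 1 WT library, so WT alone would not have met the filter. Of the 7 membrane regulators listed, 4 were tested and 3 fell, Cd59a among them, where 32.6% of all genes tested were called lower. With so few genes this count is a description. Cd59a, which blocks the membrane attack complex, was at 9.91 and 7.78 normalized counts in the libraries labelled KO, against 44.2, 40.6 and 40.7 in WT (log2 fold change -2.13, limma adjusted p = 6.38e-06). It passed the filter only through WT. Susd4, a membrane inhibitor of the cascade, was at 33.0 and 31.1 in the libraries labelled KO, against 139.7, 158.3 and 145.2 in WT (-2.17, adjusted p = 1.19e-09). Cr1l, known as Crry, the broad C3 regulator of rodent cells, averaged 1189 normalized counts in the libraries labelled KO and 1402 in WT. It fell by 0.24 on the log2 scale (adjusted p = 0.000879). Cd46, for another cofactor of C3b cleavage, did not pass (-0.085, adjusted p = 0.864).

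Masp1, a protease gene of the lectin pathway, was at 2062 and 2206 normalized counts in the libraries labelled KO, against 2905, 3135 and 2851 in WT. It fell by 0.47 on the log2 scale (limma, adjusted p = 3.73e-08), while Masp2 did not pass (-0.093, adjusted p = 0.771). Clu, for clusterin, a soluble inhibitor of the terminal complex, was at 246.7 and 255.8 in the libraries labelled KO, against 418, 426 and 387 in WT (log2 fold change -0.70, adjusted p = 2.02e-06). Cfp, for properdin, which stabilizes the alternative pathway enzyme, fell by 0.27 (adjusted p = 0.0358), a call lost without KO replicate 1, WT replicate 1 or WT replicate 3 (adjusted p from 0.0831 to 0.234). The 3 genes that rose were Cpn1, for the carboxypeptidase that trims C3 and C5 fragments, Cr2, for a receptor of C3 fragments, and Cd93, a membrane glycoprotein once described as a C1q receptor. Their log2 fold changes were 2.41, 1.94 and 1.69 (adjusted p = 0.000176, 0.000332 and 0.000187), all from low levels. Cpn1 was at 22.0 and 35.6 normalized counts in the libraries labelled KO and 5.30, 2.97 and 5.55 in WT, so it passed the filter only through the libraries labelled KO. Cr2 was at 44.1 and 44.5 in the libraries labelled KO and 21.2, 8.90 and 6.48 in WT, and Cd93 at 54.0 and 40.03 in the libraries labelled KO and 15.0, 16.8 and 10.2 in WT. Itgb2, an integrin chain of complement receptors, did not pass (0.20, adjusted p = 0.697). None of the 7 terminal pathway genes reached the filter, and of the 33 untested genes 14 were listed at 0 in all libraries. In a library, a gene listed at 0 allows up to 3 reads, or 2.65 to 3.34 normalized read counts.

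**Figure D3:**
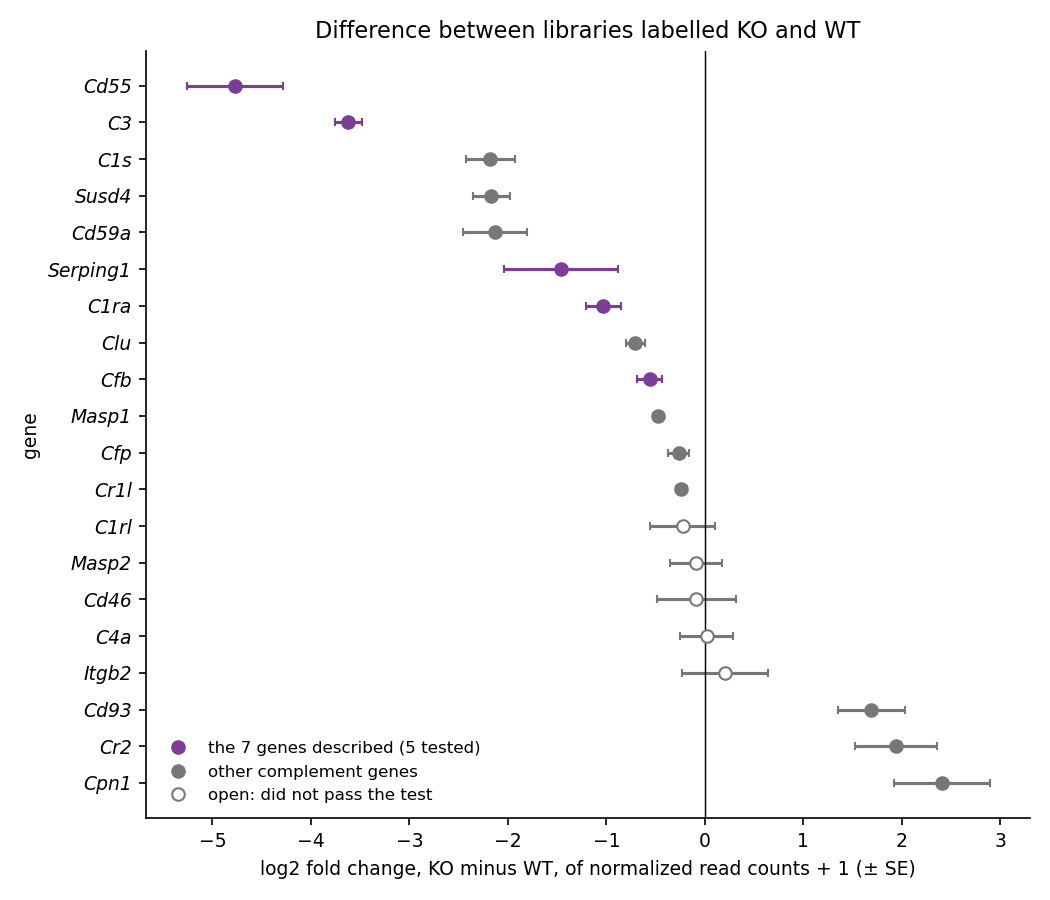
Log2 fold change (libraries labelled KO minus WT) of normalized read counts plus 1, with its standard error, for the 5 tested members (purple) and 15 other tested complement genes (grey); filled points passed the test. Cd55 and C3 lie lowest at -4.77 and -3.62, and Cd93, Cr2 and Cpn1 are the filled points above 0.

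Markers of other cell types that make complement were compared in the same libraries. Of 12 macrophage and blood markers 3 were tested, and the summed level was 279.7 and 309.1 normalized counts in the libraries labelled KO and between 292.8 and 315.5 in WT, mostly Cd14 and Cd68. Tyrobp was listed at 0 in all libraries, and of the 3 tested Csf1r rose (log2 fold change 1.99) while Cd14 and Cd68 did not pass (-0.12 and -0.46). Csf1r reached 10 in only 1 WT library, so WT alone would not have met the filter. The sum of 8 hepatocyte markers was 8.81 and 15.6 in the libraries labelled KO and between 15.7 and 22.1 in WT, with Ttr, Serpina1a, Fga and Fgb listed at 0 in all. Hpx, the 1 of them tested, carried most of the WT sum. It was at 4.41 and 11.1 in the libraries labelled KO, against 18.6, 13.8 and 15.7 in WT. It was called lower (log2 fold change -1.07, limma adjusted p = 0.0481). Hpx reached 10 in only 1 library labelled KO, so those libraries alone would not have met the filter. The part of these cell types in the complement differences was not tested. Of the transcription factor genes whose products are known to act on complement genes, Cebpd and Cebpb, for C/EBP factors, fell, with log2 fold changes of -1.38 and -0.91. Stat3, Irf1 and Nfkb1 fell too, at -0.44, -0.31 and -0.23, and Rela and Nr1h3 did not pass (-0.035 and 0.29). With the median of genes within 5 Mb removed, Stat3 lost its call (-0.10, adjusted p = 0.0521) and Rela was called lower (-0.34, adjusted p = 5.02e-07). The part of these factors in the complement differences was not tested.

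The genes around the members were compared to give the background of the same chromosomal region. Of 52 tested genes within 5 Mb of C3, 33 rose and 2 fell (median log2 fold change 0.35), and none was as low as C3. Around C1ra, 45 of 79 rose and 7 fell (median 0.26), and around Cfb 77 of 144 rose and 23 fell (median 0.27). These 3 genes were thus lower than the median of their surroundings, and with that median removed their log2 fold changes were -3.97, -1.29 and -0.83. There were 2 genes lower than C1ra and 15 lower than Cfb in these regions. Around Serping1, 7 of 26 rose and 10 fell (median 0.019), and 3 were lower than it. Around Cd55, 36 of 70 fell and 11 rose (median -0.14). None was as low as Cd55 at -4.77 (SE 0.491), but the lowest was close, at -4.56. Cd55 passed the filter only through WT and was at -3.14 with a pseudocount of 5, so its place is a description. The nearest tested genes of C3 were Trip10, which rose by 0.63, and Tnfsf9, which did not pass (-0.50, adjusted p = 0.0676). With the median of genes within 5 Mb removed, Tnfsf9 was called lower (-0.85, limma adjusted p = 0.00499). Serping1 stood between Ypel4 and Ube2l6, which both fell, with log2 fold changes of -1.52 and -1.24. Ypel4 reached 10 in only 1 library labelled KO, so those libraries alone would not have met the filter. Cd55 lay between Cxcr4, 1837499 bases away, and Pfkfb2, 224034 bases away, which fell too, at -2.41 and -0.53. Beside Cfb, Zbtb12 rose by 0.59 and Rdbp did not pass (0.11, adjusted p = 0.0603). With that median removed Rdbp was called lower (-0.16, limma adjusted p = 0.0105). On RPKM values it was called higher (0.10, limma adjusted p = 0.0368). Beside Cfd, Ptbp1 rose by 0.13 and Med16 fell by 0.39 on the log2 scale. Med16 lost its call with the median of genes within 5 Mb removed (-0.092, limma adjusted p = 0.0708). Next to C4b and opposite C4a, Tnxb did not pass (0.55, adjusted p = 0.187).

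**Figure D4:**
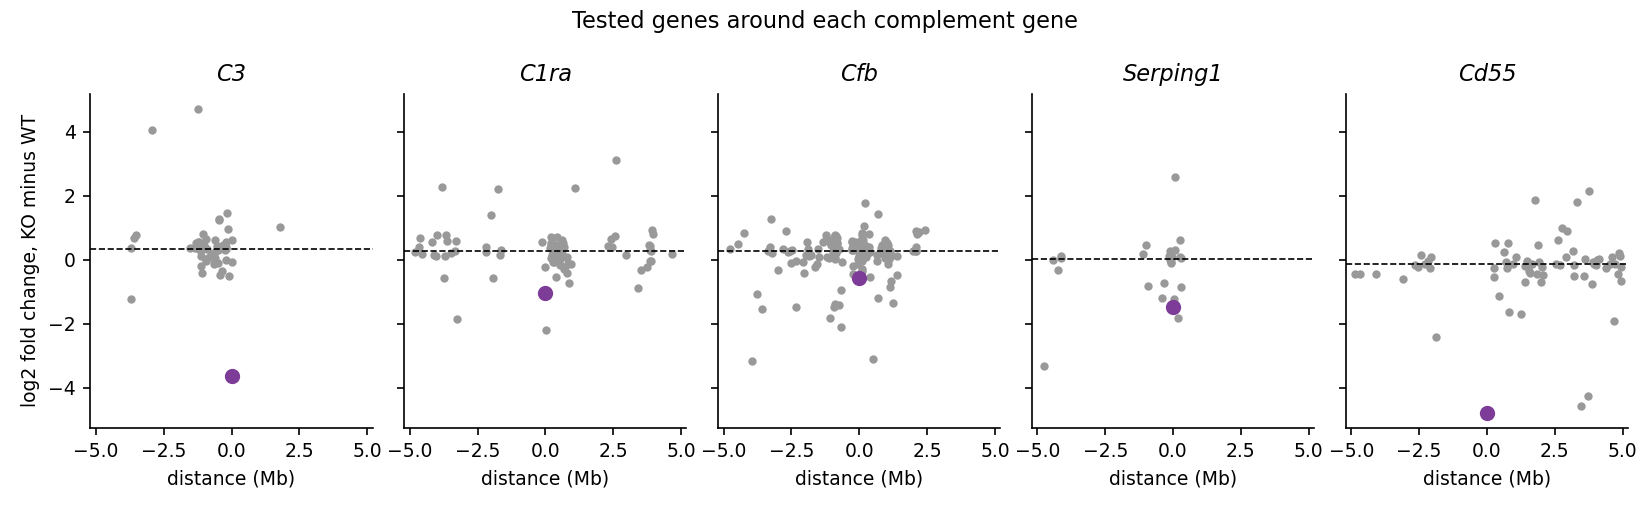
Log2 fold change (libraries labelled KO minus WT) of tested genes against their distance in Mb from each of the 5 tested members (purple point at 0); grey points are other genes and the dashed line is their median. C3 lies below every gene around it, whose median was 0.35. Around Cd55 the median was -0.14 and the lowest gene, at -4.56, lies close to Cd55, which passed the filter only through WT.

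The genes most like each member in profile were found by the Euclidean distance of log2 values over the 5 libraries, each gene centred on its mean, among 10504 genes with a mean of 100 or more. Nearest to C3 were Lama4, for a laminin chain (distance 0.106), and Nell2, for a secreted glycoprotein (0.120). C1ra was nearest to Arl4a (0.173) and Pmp22 (0.175), and Cfb to Dyrk1b (0.129) and Hivep3 (0.145). No gene came as close to Cd55, for which Sim2 (0.845) and Fbxl7 (0.954) were nearest, or to Serping1, for which Ttc39a (1.06) and Pcdhgb2 (1.21) were nearest. Cd55 and Serping1 had few reads in the libraries labelled KO, and the part of counting error in their distances was not tested. The libraries form 2 groups, so the distances are a description of 5 points that share their grouping.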

How the data were processed

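Per the labels' protocols, mRNA of 5 samples was captured on poly-T beads and turned into libraries with a Nextera XT kit for an Illumina NextSeq. STAR, DESeq2 and mm10 are named by the submitters' processing notes. How reads were counted, with which annotation and strand setting, is not given in the sources used here. Judging by the steps of its values, the signal that the authors deposited is a read count over 1 size factor for each library: 100% were whole multiples of a step, within 0.1 reads. Per the file headers the authors also deposited RPKM, and for each gene a log2 ratio and its error, a Wald score and p-values.

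Samples were grouped by title. The values being normalized, the test was limma 3.58.1 (trend option, R 4.3.3) on log2(value + 1) for the 13062 genes that reached 10 in 2 libraries or more, with genotype as the one factor and Benjamini-Hochberg adjustment over all of them. Fold changes on this scale understate those of low genes. Within groups, libraries differed beyond sampling noise (chi-square per gene at 1 degree of freedom with means from 3.45 to 7.60 and medians from 1.02 to 1.66). Each library was counted separately, though this spread cannot tell separate cultures from technical repeats. Whole reads of 4 libraries (without WT replicate 2, whose step is near 1) went into edgeR 4.0.16 and DESeq2 1.42.0 as alternatives, and edgeR called 8103 genes. The test was also run on simulated data. Intervals and floors cover counting error only. Positions came from RefSeq (GRCm38.p6), overlaps and transcripts from GENCODE M21. The named genes are the 7 members, every other complement gene tested, Sirt3, the nearest tested genes on the chromosome and the nearest 2 in profile. Markers, factors and untested complement genes named beside these were chosen after their values were seen. Some genes of the lists are not reported here. The members and lists were chosen with earlier results of these data known.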

Additional observations from a re-analysis of the deposited data

How the results depend on the processing

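C3, C1ra, Cfb and Cd55 kept their direction and, at an adjusted p under 0.05, their call under every alternative that tested them, but Cfb is not called where a 2-fold change is also required. They had log2 fold changes from -3.97 to -3.08, -1.29 to -0.91, -0.83 to -0.37 and -5.61 to -2.47. Cd55 and Serping1 had no test with a mean of 50 or more required. Serping1 was below 0 under every alternative that tested it but lost its call with no filter (-1.46), on RPKM values (-0.86), with edgeR (-1.59), with DESeq2 on the recovered reads (-1.63) and in the authors' deposited table (-0.67). Without single libraries it ranged from -2.09 to -0.83. Members called lower were 5, 3 with a mean of 50 or more required, and 4 to 5 without single libraries. Other complement genes called higher were 3, but 7 with no filter and 0 of 6 tested with a mean of 50 or more required, and those called lower were 7, but 3 at 2-fold or more. Of all genes 4259 were called higher and 4264 lower, and 858 and 837 at 2-fold or more. Sirt3 was at 0.22 with the local shift removed and from 0.39 to 0.64 without single libraries. Genes that did not pass changed sign in 10 cases: C4a without KO replicate 2 (-0.25), without WT replicate 1 (-0.072) and with the local shift removed (-0.25), Masp2 without KO replicate 2 (0.090), Cd46 without KO replicate 1 (0.054) and WT replicate 1 (0.28), Itgb2 without KO replicate 1 (-0.18), Rela without KO replicate 1 (0.027), Tnxb without KO replicate 2 (-0.16) and Rdbp with the local shift removed (-0.16). Rdbp was called lower in the last of these (adjusted p = 0.0105 by limma). The causes were not tested. Without single libraries these genes ranged from -0.25 to 0.29 (C4a), -0.28 to 0.090 (Masp2), -0.27 to 0.28 (Cd46), -0.18 to 0.58 (Itgb2), -0.096 to 0.027 (Rela) and -0.16 to 1.25 (Tnxb). Leaving out a library labelled KO leaves 1, assumed to vary like WT.

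Replicate numbers are shared between the genotypes, but same-numbered libraries did not deviate together (correlations of -0.00975 and -0.005). With the replicate number as a block, 4 members were called lower, Serping1 being at -1.11 (adjusted p = 0.142), and 3958 genes were called higher and 3947 lower. Depth limits C4b, Cfd, Serping1 and the libraries labelled KO for Cd55.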

Other observations

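Some complement genes under the filter on low values had a few reads in the libraries labelled KO. They were picked after their values were seen and were not tested in the fit above. Colec11, for a lectin that can start the lectin pathway, was at 4.41 and 6.67 normalized counts in the libraries labelled KO and listed at 0 in all WT libraries. Cpn2, for the partner subunit of Cpn1, was at 3.30 and 2.22 in the libraries labelled KO and likewise listed at 0 in WT. Itgam, for an integrin chain of complement receptor 3, was at 6.61 and 6.67 in the libraries labelled KO, against 0, 2.97 and 1.85 in WT. C3ar1, for the receptor of the C3 fragment C3a, was at 9.91 and 6.67 in the libraries labelled KO, against 1.77, 7.91 and 11.1 in WT, and these groups overlapped. In the authors' deposited table, Colec11 had an adjusted p of 0.0326 and Itgam one of 0.184.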
